A study of Mus musculus with 33 samples.

Results

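Microglia of the cerebral cortex (Cx) were compared between postnatal day 10 (P10) and postnatal day 7 (P7). The comparison used 7 of the 33 RNA-seq libraries of the series, namely the 4 libraries labelled Cx and P10 and the 3 libraries labelled Cx and P7, and they were chosen by region and age alone. All libraries came from untreated C57BL6 mice kept under SPF conditions, and the other 26 cover the corpus callosum (CC), the cerebellum (Cb) and the age P42. The P7 group held 2 male libraries and 1 female library, and the P10 group held 2 of each sex. Cells were sorted as CD45+, CD11b+ and Gr-, a gate that other macrophages of the brain also pass, and each library was amplified from 1 ng of RNA without molecular identifiers. The labels do not say whether a library is 1 animal or a pool, so the p-values measure the spread between libraries, which may in part be technical. Reads of mt-Nd3 and Gm28438 set all 9 P7 libraries of the series apart from the other 24, as given at the end of the Results. Age and any step that went with it therefore cannot be told apart in the P10 against P7 differences below.

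Microglia are the resident macrophages of the brain. They enter it in the embryo, divide in the young tissue and then take on a resting surveillance state, in which they extend fine processes and carry receptors for purines, chemokines and colony-stimulating factor. TGF-beta signalling is needed for this state, and lysosomes break down the synapses, myelin and dying cells that the cells take up during the first weeks after birth.

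The gene totals were 30166700 to 40575511 counts at P7 and 37086435 to 44973514 counts at P10. Levels are given in CPM (counts scaled to a common library size by TMM, a method that sets library sizes by the bulk of the genes), on which 1 read was worth 0.0227 to 0.0306. The TMM factors of the ages did not overlap, at 1.03 to 1.09 for P7 and 0.966 to 1.00 for P10. Nor did the share of counts in ribosomal protein genes, at 0.491% to 0.665% and 0.410% to 0.468%, while the share in mitochondrial genes overlapped. Identity markers of microglia were abundant in each library. Their summed level over 13 genes was 48939 to 54471 CPM at P7 and 81882 to 86781 CPM at P10. Markers of other cells were scarcer, and their lists moved in both directions. The 15 markers of macrophages at the brain's borders summed to 1039 to 1306 CPM at P7 and to 625 to 668 CPM at P10, mostly from Mrc1 and Dab2, while Cd209f and Cd209g were under 1 CPM in every library. The 15 neuronal markers summed to 15.8 to 28.4 CPM at P7 and 6.12 to 12.3 CPM at P10, and the 8 progenitor markers to 62.4 to 79.3 CPM and 21.0 to 28.1 CPM, of which Nes made up nearly all. The 11 astrocyte markers rose in sum from a range of 69.4 to 83.4 CPM to one of 102 to 111 CPM through Slc1a3, whereas Aqp4 was at most 1.67 CPM in any library and Aldh1l1 stood at 11.7 to 21.5 CPM at P7 and 0 to 1.48 CPM at P10. The 11 endothelial markers summed to 65.8 to 82.7 CPM at P7 and 112 to 120 CPM at P10, the 15 lymphocyte markers to 605 to 806 CPM and 600 to 647 CPM, mostly from Ighm, and the 11 monocyte markers to 12.9 to 14.6 CPM and 16.8 to 20.5 CPM. P10 replicate 3, labelled male, held Xist at 22.9 CPM, where the other male Cx libraries of these ages held at most 0.919 CPM and the female libraries at least 277 CPM. The part of these markers and of that library in the results was not tested. Changed calls of named genes within Cx are given without that library, and counts without it stand with the other alternatives below.

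Between P7 and P10 most transcripts that mark resting microglia rose, and a small set of other genes changed more strongly. Transcripts of cell division had negative fold changes as a group, but few of them passed the test over all libraries. Of 20917 genes tested with edgeR's quasi-likelihood test, 52 were called higher at P10, which is 0.249% of the genes tested, and 42 were called lower, which is 0.201%. A gene was called when its adjusted p (Benjamini-Hochberg) was at most 0.01 and its log2 fold change at least 1 in size. Without the limit on the fold change, 297 genes were higher at P10 (1.42% of those tested) and 303 were lower (1.45%). The median log2 fold change over all genes tested was -0.02. In each of the 94 called genes the 4 P10 libraries lay wholly above or wholly below the 3 P7 libraries, as they did in 20.3% of all genes tested. The count of lower genes fell to between 24 and 27 when P10 replicate 1, P10 replicate 4, P7 replicate 1 or P7 replicate 2 was left out. With P7 replicate 1 left out 67 genes were called, and with P10 replicate 3 left out 77 were, of which 69 were among the 94. A fit of the 7 libraries alone called 162 genes, and limma-voom called 170, of which 116 were lower at P10.

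The 30 genes of the homeostatic microglia list moved one way. All 30 had a positive fold change, 24 rose at an adjusted p of at most 0.01, of which 6 also passed the fold limit, and none fell. Their median log2 fold change was 0.73. P2ry12, the purine receptor through which microglial processes sense nucleotides, measured 6707, 7413 and 8219 CPM at P7 and 14822, 15649, 15751 and 14871 CPM at P10. Every P10 library lay far above the highest P7 library, and the fold change was 2.05 (log2 1.04 ± 0.10 SE, adjusted p = 2.5e-08, edgeR's quasi-likelihood test). Tmem119, a membrane protein used as a marker of microglia, measured 2001, 2647 and 1959 CPM at P7 and 4885, 4939, 5049 and 5289 CPM at P10. It rose 2.29-fold (log2 1.19 ± 0.11, adjusted p = 1.3e-08 by the same test), and the P10 libraries differed from each other by less than the P7 libraries did. Selplg, the selectin ligand PSGL-1, rose 2.93-fold from 1450, 1587 and 1194 CPM to 3809, 4015, 4316 and 4404 CPM, with no library of either age near the other group.

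Sparc, a secreted matrix-associated glycoprotein, rose 2.01-fold, from 5439 to 6835 CPM at P7 to 11888 to 12664 CPM at P10. Itgam encodes CD11b, the integrin chain on which the cells were sorted, and rose 2.17-fold from 775 to 977 CPM to 1765 to 2073 CPM. Lag3, an inhibitory receptor, was low at P7, with 12.1, 12.1 and 10.0 CPM, and reached 39.0, 24.4, 28.2 and 25.7 CPM at P10. The calls of P2ry12 and Sparc rested on the fold limit. Without P7 replicate 1 the log2 fold change of P2ry12 was 0.99, and that of Sparc was 0.94 without P7 replicate 3 and just under the limit without P10 replicate 3, while the adjusted p stayed at 6.1e-07 or lower.

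Among members that rose by less than 2-fold were Csf1r, the receptor for colony-stimulating factor 1 (log2 0.77 ± 0.07), P2ry13, a second purine receptor (0.89 ± 0.09), Cst3, the protease inhibitor cystatin C (0.73 ± 0.09), and Cx3cr1, the fractalkine receptor (0.48 ± 0.06). Csf1r went from 9481, 10032 and 9780 CPM to 16795, 15484, 17408 and 16802 CPM. The lowest P10 library lay well above the highest P7 library. By limma-voom neither Csf1r nor Cst3 passed (adjusted p 0.34 and 0.99). The 6 members that did not pass were Trem2, Crybb1, Fcrls, Bin1, Gpr84 and Nav3, with log2 values of 0.16 for Trem2, 0.27 for Fcrls and 0.57 for Nav3.

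Of 29 transcription factors tested, 3 rose at an adjusted p of at most 0.01 and none fell. The list median was 0.14, and it was 0.30, 0.36 and 0.28 without P7 replicates 1, 2 and 3 and 0.23 without P10 replicate 4. Sall1, which marks microglia among macrophages, went from 314, 243 and 280 CPM at P7 to 368, 367, 427 and 378 CPM at P10 (log2 0.46 ± 0.10, adjusted p = 0.0024, edgeR's quasi-likelihood test). Irf5, a factor of interferon and cytokine genes, went from 153, 189 and 148 CPM to 230, 231, 227 and 261 CPM (log2 0.54 ± 0.10). In both genes the groups did not overlap. Sall1 did not pass in the fit of the 7 libraries alone (adjusted p = 0.015, edgeR's quasi-likelihood test) or without P10 replicate 3 (0.014) or P7 replicate 2 (0.025), nor did Irf5 without P7 replicate 1 (0.013) or 3 (0.010, just over the limit).

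**Figure D1:**
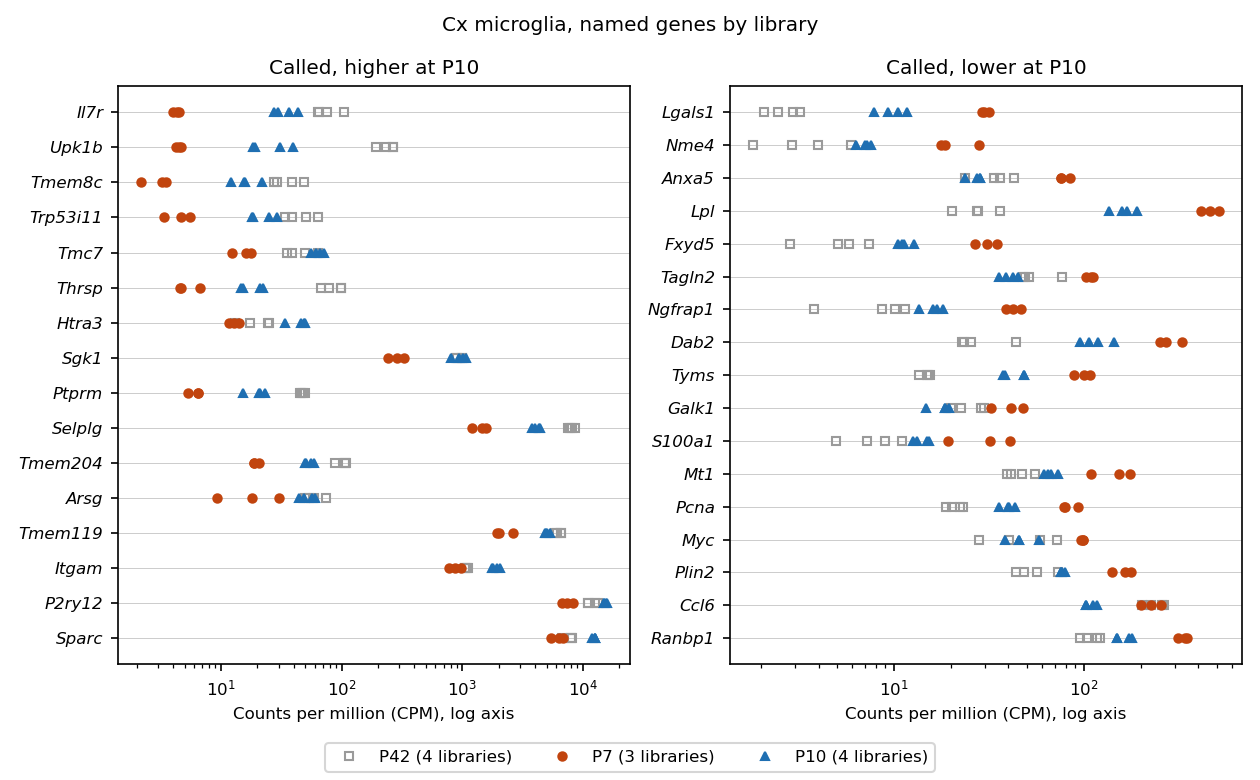
CPM (log axis) of called genes in each Cx library, 1 row per gene and 1 point per library: circles P7 (3), triangles P10 (4), open squares P42 (4). In each row the triangles do not overlap the circles, and in Selplg, Il7r and Upk1b the P42 libraries lie farther in the same direction, whereas in Ccl6 they lie within or near the P7 range of 200 to 254 CPM.

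Of the called genes that averaged 10 CPM or more, those with the largest increases were mostly scarce at P7. Il7r, the alpha chain of the interleukin-7 receptor, measured 4.50, 4.35 and 4.04 CPM at P7 and 36.8, 43.5, 27.3 and 29.5 CPM at P10. This was a 7.96-fold rise (log2 2.99 ± 0.41, adjusted p = 1.4e-05, edgeR's quasi-likelihood test), and at P42 the gene stood at 63.6 to 105 CPM. Upk1b, a tetraspanin known from the bladder lining, went from 4.23, 4.47 and 4.69 CPM to 39.9, 18.5, 19.0 and 30.6 CPM, a 6.05-fold rise in which P10 replicate 1 was the highest. At P42 it measured 193 to 269 CPM. Tmem8c, the muscle fusion protein myomaker, rose 5.46-fold from 2.17 to 3.52 CPM to 12.0 to 21.9 CPM.

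Thrsp, a nuclear regulator of fatty acid synthesis, rose 3.46-fold from 4.62 to 6.65 CPM to 14.7 to 22.4 CPM. Sgk1, the serum- and glucocorticoid-regulated kinase, measured 240, 286 and 326 CPM at P7 and 807, 933, 1080 and 1022 CPM at P10 with no overlap (log2 1.76 ± 0.13, adjusted p = 9.6e-10, edgeR's quasi-likelihood test). Ptprm, a receptor phosphatase of cell contacts, rose 3.28-fold and Tmem204, a membrane protein of cell junctions, 2.77-fold. Adgrg1, an adhesion receptor also called GPR56, rose 2.67-fold from 384 to 469 CPM to 1018 to 1233 CPM, and Siglecf, a receptor for sialic acids, 2.62-fold from 44.9 to 59.2 CPM to 124 to 151 CPM. Siglecf was back at 48.1 to 68.3 CPM at P42, and Itgam at 1048 to 1118 CPM, so the P10 libraries of these 2 genes were the highest of the 3 ages in Cx.

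Of the 12 largest increases, 4 lost their call when 1 library was left out. Trp53i11, a p53-induced gene, lost its call without any 1 of the 7 libraries (adjusted p 0.0129 to 0.0774), and Htra3, a secreted serine protease, without any but P10 replicate 2 (0.0188 to 0.0475). Arsg, a lysosomal sulfatase whose exons overlap those of Slc16a6 on the other strand, lost it without P10 replicates 1 or 4 or P7 replicates 2 or 3 (0.0106 to 0.0358), and Tmc7, a channel-like membrane protein, without P7 replicate 1 (0.0241). All 4 kept their direction in each of these fits, with 18.1 to 29.2 CPM for Trp53i11 at P10 against 3.39 to 5.58 CPM at P7. Upk1b and Thrsp kept their calls whichever Cx library was left out, but each exceeded the adjusted p limit of 0.01 in another alternative fit.

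For a view of the sequence in front of genes that moved, the 250 bases before the RefSeq start site (build GRCm38.p6) are shown for Il7r and Eng, which rose, and for Tyms and Galk1, which fell, because their windows touch no exon of the count table and hold a searched motif. Each is written 5′ to 3′ on the strand of the gene, and capitals mark the match. The letters searched, on both strands, were CACGTG for the E-box, GAGGAAGT for an ETS motif of the factor PU.1 and CCAAT for the box of that name. The match is that box, on the reverse strand, in Il7r, the ETS motif, also reversed, in Eng and the E-box in Tyms and Galk1.
Il7r: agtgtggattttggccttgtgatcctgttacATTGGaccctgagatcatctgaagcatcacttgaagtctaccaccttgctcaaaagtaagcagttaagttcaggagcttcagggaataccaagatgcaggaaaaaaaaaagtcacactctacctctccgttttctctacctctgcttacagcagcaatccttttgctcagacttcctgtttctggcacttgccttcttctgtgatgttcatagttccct
Eng: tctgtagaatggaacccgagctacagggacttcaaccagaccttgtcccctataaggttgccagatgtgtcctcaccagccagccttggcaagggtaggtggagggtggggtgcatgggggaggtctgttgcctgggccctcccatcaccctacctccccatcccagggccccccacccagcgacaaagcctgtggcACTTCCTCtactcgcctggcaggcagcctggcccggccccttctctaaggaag
Tyms: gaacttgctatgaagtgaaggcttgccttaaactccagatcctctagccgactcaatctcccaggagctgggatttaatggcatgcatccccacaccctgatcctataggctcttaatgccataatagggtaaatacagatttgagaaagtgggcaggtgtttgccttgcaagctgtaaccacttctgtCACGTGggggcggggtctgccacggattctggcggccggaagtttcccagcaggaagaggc
Galk1: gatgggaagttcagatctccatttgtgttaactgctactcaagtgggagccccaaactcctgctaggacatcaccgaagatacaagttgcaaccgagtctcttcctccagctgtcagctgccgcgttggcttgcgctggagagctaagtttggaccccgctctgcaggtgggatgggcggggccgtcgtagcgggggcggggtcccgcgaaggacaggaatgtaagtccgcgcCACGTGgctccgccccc
The windows are chr15:9529877-9530126 (minus strand), chr2:32646345-32646594 (plus), chr5:30073626-30073875 (minus) and chr11:116012720-116012969 (minus). An E-box stood in 7 of 39 windows of genes called lower (17.9%), in 4 of 52 windows of genes called higher (7.69%) and in 7.74% of the windows of all genes tested. For the CCAAT box the shares were 38.5%, 21.2% and 34.8%, and for the ETS motif 0%, 3.85% and 2.48%. An E2F motif (TTTCCCGC, TTTCGCGC, TTTGCCGC or TTTGGCGC) was in 2.56%, 1.92% and 2.95%. RefSeq windows matched 32 of the 42 genes called lower and 33 of the 52 called higher, and these shares are a description with no test.

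Genes of cell division had lower levels at P10 as a group, although few passed the main test. In the DNA replication list all 32 genes had a negative fold change, with a median of -0.98, and in 29 of them the 4 P10 libraries lay wholly below the P7 libraries. In the mitosis list all 30 were negative, with a median of -0.68, and 25 did not overlap. Of all genes tested, 20.3% did not overlap, a share that counts genes higher at P10 as well as genes lower at P10. The number that passed the test depended on the fit. When the 33 libraries shared 1 estimate of the spread, 2 replication genes and 0 mitosis genes fell at an adjusted p of at most 0.01 (edgeR's quasi-likelihood test). When the 7 Cx libraries of P7 and P10 were fitted alone, 21 replication genes and 14 mitosis genes fell, against 1.65% of all genes tested in that fit, with list medians of -0.96 and -0.66. By limma-voom on all libraries 14 and 10 fell, and by DESeq2 4 and 1. In the shared fit 2 of the 30 mitosis genes had an unadjusted p under 0.05, against 3124 of the 20917 genes tested.

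The 2 replication genes that passed in the shared fit were Pcna and Tyms. Pcna, the sliding clamp of the replication fork, measured 79.5, 78.4 and 92.8 CPM at P7 and 39.6, 40.4, 43.2 and 35.6 CPM at P10 (log2 -1.07 ± 0.14, adjusted p = 5.2e-06, edgeR's quasi-likelihood test). Its value was -0.97 without P7 replicate 3, inside the fold limit, and also just inside it without P10 replicate 4. Tyms, which makes thymidylate, went from 100, 107 and 88.3 CPM to 38.4, 48.0, 48.4 and 37.5 CPM, a 2.29-fold fall, and its groups were well separated.

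Mcm6, a subunit of the replicative helicase, stood at 292, 326 and 347 CPM at P7 and 150, 184, 162 and 149 CPM at P10, and Cdk1, the kinase of mitotic entry, at 241, 229 and 231 CPM against 128, 140, 134 and 118 CPM. Neither passed in the shared fit (adjusted p 0.094 and 0.45), though the groups did not overlap. Top2a, the topoisomerase of dividing cells, overlapped between the ages, with 257 to 432 CPM at P7 and 206 to 280 CPM at P10. At P42 Top2a was at or below 0.396 CPM in the 4 Cx libraries. Over the same ages the median of the replication list was -0.51 in CC and -0.25 in Cb, with no test of the list between regions.

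**Figure D2:**
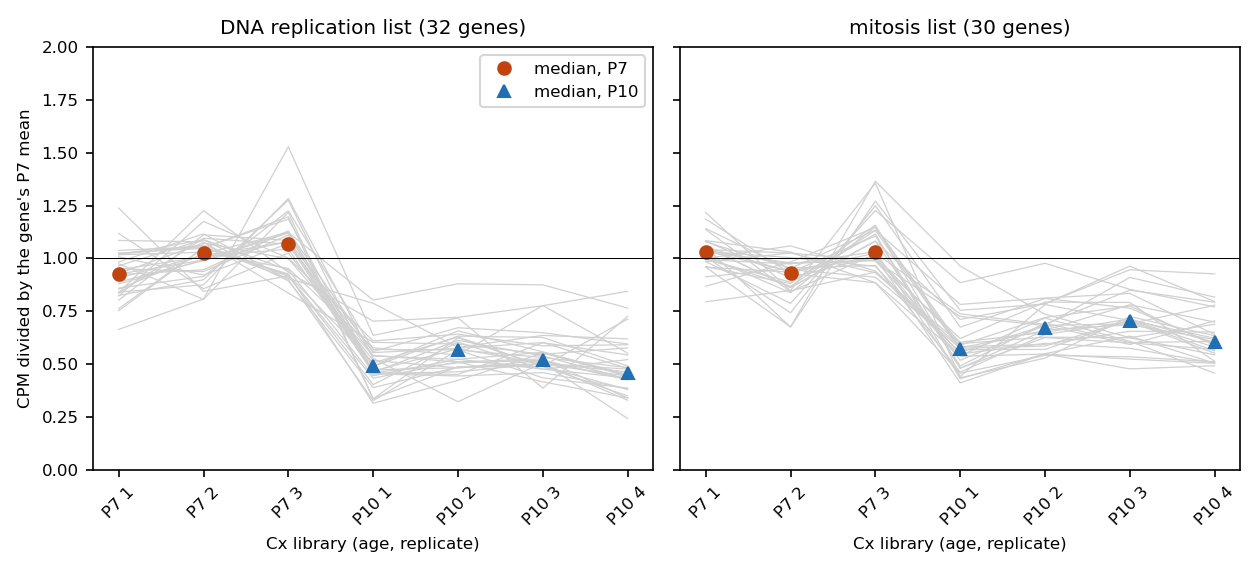
CPM of each gene divided by its mean over the 3 P7 libraries (y axis, linear from 0) in the 7 Cx libraries (x axis), 1 grey line per gene, for 32 DNA replication genes on the left and 30 mitosis genes on the right, with filled markers at the median gene of each library. The P10 medians lie below the P7 medians in each of the 4 libraries, and more so for replication than for mitosis.

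Among the other genes called lower, several are known from growth and biosynthesis, a grouping made after their values were seen. Ranbp1, a regulator of nuclear transport, fell 2.05-fold from 339, 347 and 313 CPM to 148, 180, 172 and 149 CPM. Its exons overlap those of Trmt2a on the other strand, and its log2 value lay between -0.97 and -0.99 without P10 replicates 1 or 4 or P7 replicate 2. Myc, a transcription factor that drives growth, fell 2.09-fold from 96.7, 98.7 and 98.3 CPM to 38.5, 45.4, 57.7 and 45.5 CPM, with -0.98 on the log2 scale without P10 replicate 1. Pa2g4, a ribosome-associated growth regulator, fell 2.08-fold (-0.90 without P7 replicate 3). Psat1, an enzyme of serine synthesis, fell 2.15-fold from 179 to 189 CPM to 77.2 to 90.1 CPM, and Galk1, galactokinase, 2.27-fold from 32.5 to 47.5 CPM to 14.8 to 19.5 CPM.

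Lipid genes fell in part. Lpl, the lipoprotein lipase, measured 512, 414 and 459 CPM at P7 and 159, 191, 168 and 136 CPM at P10, a 2.83-fold fall (log2 -1.50 ± 0.19, adjusted p = 5.3e-06, edgeR's quasi-likelihood test), and 20.2 to 36.3 CPM at P42. Plin2, the coat protein of lipid droplets, fell 2.08-fold from 165, 176 and 141 CPM to 76.0, 76.0, 79.6 and 76.2 CPM, and by 0.96 on the log2 scale without P7 replicate 2. In the list of cholesterol efflux and lipid handling 2 of 29 genes rose and 2 fell, with a median of -0.05. Apoe, the main lipid carrier of the brain, was at 2919, 3452 and 2170 CPM against 1934, 1832, 1910 and 1842 CPM, without passing (adjusted p = 0.13 by the same test). In the cholesterol synthesis list none of 25 genes passed, and 23 were negative with a median of -0.45. At an unadjusted p under 0.05 there were 6 of the 25, against 3124 of the 20917 genes tested, and limma-voom passed 3 and DESeq2 1.

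The other large decreases were in genes of varied function. Anxa5, which binds phosphatidylserine, fell 2.92-fold from 75.5, 84.7 and 75.9 CPM to 28.4, 27.5, 23.6 and 28.4 CPM. Tagln2, an actin-binding protein, fell 2.66-fold from 102 to 112 CPM to 35.8 to 44.9 CPM, and Ngfrap1, an adaptor of a neurotrophin receptor, 2.64-fold from 38.7 to 46.6 CPM to 13.5 to 18.1 CPM. Ccl6, a chemokine, fell 2.08-fold from 200 to 254 CPM to 103 to 118 CPM, and by 0.94 on the log2 scale without P7 replicate 2. Dab2, an endocytic adaptor that is also on the border macrophage list, fell 2.44-fold from 250, 271 and 328 CPM to 95.8, 143, 118 and 106 CPM. It moved with that list's other abundant member Mrc1, the mannose receptor, at 684 to 905 CPM against 447 to 494 CPM, which did not pass over all libraries (adjusted p = 0.57) but did by limma-voom (3.0e-05) and in the fit of the 7 libraries alone (0.0015), and fewer such cells and less RNA per cell cannot be told apart in bulk libraries. Without P7 replicate 3 the adjusted p of Dab2 was 0.0135.

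Lgals1, the galectin that binds surface sugars, fell 3.06-fold from 29.1 to 31.7 CPM to 7.88 to 11.7 CPM, but lost its call without any 1 library other than P10 replicate 2 (adjusted p 0.0124 to 0.0249, edgeR's quasi-likelihood test). Nme4, a mitochondrial nucleotide kinase, lost it without any 1 of the 7 (0.0158 to 0.0791). Fxyd5, a modulator of the sodium pump, fell 2.72-fold and was at 0.0153 without P7 replicate 1. S100a1, a calcium-binding protein, lost its call without P7 replicate 1 (0.0558) or 2 (0.0134). Mt1, a metallothionein, fell 2.18-fold and by 0.95 on the log2 scale without P7 replicate 1. The P7 libraries of S100a1 were spread widely, at 41.0, 31.9 and 19.2 CPM, above 12.5 to 15.3 CPM at P10.

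Receptors for cytokines, purines and TGF-beta leaned upward. Of 28 cytokine and chemokine receptors 9 rose and none fell, with a median of 0.49. Il10ra, the ligand-binding chain of the interleukin-10 receptor, stood at 275, 296 and 286 CPM against 596, 587, 611 and 623 CPM (log2 1.08 ± 0.09, adjusted p = 1.1e-09, edgeR's quasi-likelihood test). Csf3r, the receptor for granulocyte colony-stimulating factor, rose 1.88-fold and Ifngr1, a chain of the interferon-gamma receptor, 1.63-fold. Of 28 purine receptors and ion channels 8 rose and none fell, with a median of 0.37, and Kcnd1, a voltage-gated potassium channel, rose 2.12-fold from 34.6 to 43.7 CPM to 70.7 to 90.1 CPM.

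Of 31 TGF-beta genes 4 rose and none fell, with a median of 0.31. Both main receptor chains were among them, Tgfbr1 at 1.66-fold and Tgfbr2 at 1.44-fold, as was Itgb5, an integrin chain that can release the ligand, at 1.77-fold. Eng, the co-receptor endoglin, went from 26.6, 32.7 and 30.5 CPM to 71.9, 51.9, 63.3 and 60.4 CPM. Its exons overlap Fpgs on the other strand, and its call was lost without P10 replicate 1 (log2 0.97) or P7 replicate 1 (adjusted p = 0.0125). Of 40 interferon response genes 1 rose, Slfn8, from 11.1 to 17.8 CPM to 37.4 to 40.6 CPM, and the list median was 0.15.

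Phagocytic and complement genes were mixed. Of 30 phagocytic receptors and bridging proteins 5 rose and none fell, with a median of -0.11, which was 0 with genes near 0 counts at their bound and ranged from -0.22 to 0.03 over the alternative fits. The risers were Mertk, a receptor for dying cells (1.90-fold), Sirpa, the receptor for the signal that blocks uptake (1.45-fold), Havcr2, a phosphatidylserine receptor (1.79-fold), Itgb5 and the bridging protein Pros1. Without P7 replicate 3 Mertk also passed the fold limit (log2 1.13). Of 23 complement genes and Fc receptors 5 rose and 2 fell. Itgb2, the partner chain of CD11b, rose 1.82-fold, C1qa, a chain of the first complement component, 1.29-fold and Fcgr2b, the inhibitory Fc receptor, 1.56-fold. Fcgr4, an activating Fc receptor, fell 1.82-fold from 35.0 to 41.0 CPM to 18.6 to 23.9 CPM, and C5ar1, the receptor for C5a, 1.43-fold. These falls were not stable. Fcgr4 did not pass without any 1 of the 7 libraries (adjusted p 0.010 to 0.049) and C5ar1 without any but P10 replicate 3 (0.016 to 0.17), and 0 genes of the list fell with no filter on low counts and 1 in the fit of the 7 libraries alone. C1qa did not pass in that fit (0.024) or by limma-voom (0.014).

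Antigen presentation and metabolism showed a few movers. H2-DMa, which loads peptides onto class II molecules, rose 1.78-fold and Cd86, a costimulatory ligand, 1.58-fold, 2 of the 3 class II list members of 12 that rose. Of 15 class I genes 2 rose, with a median of -0.02. In glycolysis 4 of 28 genes fell and none rose: Ldha (1.69-fold), Pkm (1.46-fold), Tpi1 (1.49-fold) and the cytokine Mif (2.00-fold), which also passed the fold limit without P10 replicates 2 or 3 or P7 replicate 3. Of these Tpi1 did not pass without any library but P10 replicate 2 (adjusted p 0.010 to 0.075), Pkm without P10 replicates 1 or 4 or P7 replicate 2 (0.017 to 0.19), and Mif without P7 replicate 1 (0.019). Btg2, an antiproliferative early response gene, was the 1 called member of 34 genes of the immediate early and dissociation response, at 65.3, 83.3 and 55.3 CPM against 152, 145, 141 and 143 CPM, with 3 of the 34 rising in all. Its log2 value was 0.99 without P7 replicate 3. None of 35 apoptosis genes passed in edgeR's quasi-likelihood test, while 2 passed by limma-voom and 3 by DESeq2. In edgeR's test 10 of the 35 had an unadjusted p under 0.05, against 3124 of the 20917 genes tested.

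**Figure D3:**
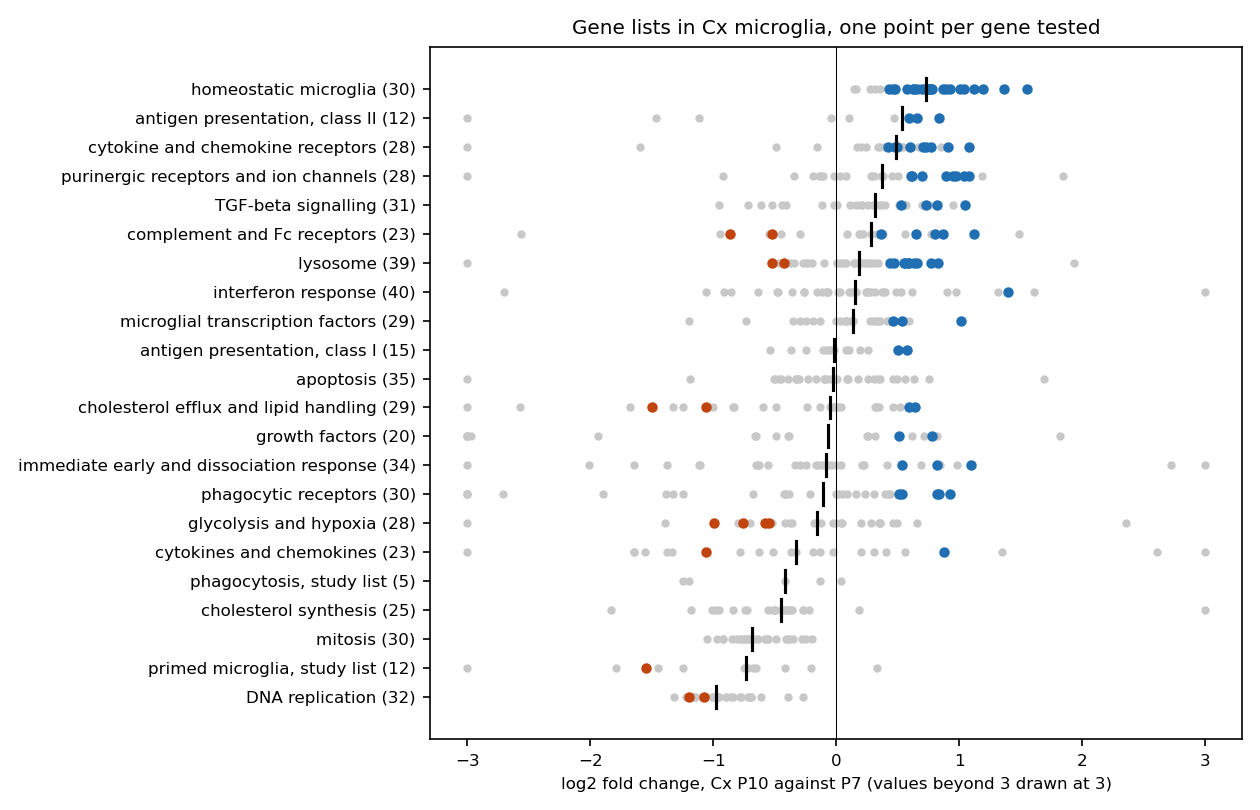
log2 fold change of Cx P10 against P7 (x axis, values beyond 3 drawn at 3) for the genes tested in 22 lists (rows, number of genes in brackets), with blue and red points for genes that rose or fell at an adjusted p of at most 0.01, grey points for the rest and a bar at the median. The homeostatic list lies wholly to the right of 0 with a median of 0.73, and the DNA replication and mitosis lists lie wholly to the left.

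Of the 12 genes that the study lists for primed microglia, a reactive state known from ageing and disease, 1 fell, Anxa5, and 11 were negative. Their median was -0.73 in Cx, -2.36 in CC and -1.56 in Cb. By limma-voom, by DESeq2 and in the fit of the 7 libraries alone 3 of the 12 fell, and Mrc1 was among them by limma-voom and in that fit. Spp1, the secreted protein osteopontin, measured 79.7, 97.7 and 88.6 CPM at P7 and 71.6, 79.3, 92.8 and 64.0 CPM at P10, and the groups overlapped. Clec7a, a receptor for fungal sugars, was at 10.8 to 11.9 CPM against 6.57 to 7.91 CPM (adjusted p = 0.18, edgeR's quasi-likelihood test). Gpnmb, a lysosome-linked glycoprotein, was at 7.71, 3.08 and 2.76 CPM against 0.620, 0.318, 0.0716 and 0 CPM, and passed in DESeq2 and after filtering by filterByExpr but not in the main test (adjusted p = 0.011). Axl, Igf1, Itgax and Lgals3 overlapped between the ages. None of the 5 genes of the study's phagocytosis list (Gsn, Scarb1, Cd36, Grk6 and Abca1) passed, with a median of -0.42, and 0 passed by limma-voom or DESeq2. In the main test 2 of the 5 had an unadjusted p under 0.05, against 3124 of the 20917 genes tested. The study drew this second list from genes regulated in these samples, so its direction is not independent evidence.

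The change from P7 to P10 was next set against the change over the same days in CC and Cb by testing the difference of the 2 changes in 1 fit. In CC 196 genes (0.937% of those tested) and in Cb 49 genes (0.234%) were called. Of the 94 genes called in Cx, 38 were also called in CC, which is 40.4% of the Cx genes and 19.4% of the CC genes, and 22 were called in Cb, which is 23.4% and 44.9%. The direction was shared in each, and 20 genes were called in all 3 regions, among them Selplg, Sgk1, Upk1b, Ptprm, Anxa5, Lgals1, Plin2, Dab2, Ccl6 and Psat1. The difference from CC was past an adjusted p of 0.01 in 25 genes (0.120% of those tested), and in 11 of these by at least 1 on the log2 scale (0.0526%). In all 25 the change in Cx was the more positive. Against Cb 9 genes passed (0.0430%), again all more positive in Cx, and 0 of them by at least 1 on the log2 scale (0% of those tested). At an unadjusted p under 0.05 there were 1153 of the 20917 genes tested, and 659 of these differed by at least 1. These 2 counts carry no adjustment for the number of genes tested. A limit of 0.05 lets through about 0.05 of the genes when none differs, and the first count is close to that share. The second count includes genes with few reads. DESeq2 called 30 genes and limma-voom 4 by the stricter rule. Both differences use the same 7 Cx libraries.

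Lysosomal genes made up 10 of the 25 genes that differed from CC and 4 of the 9 that differed from Cb, from a list of 39. Within Cx 10 of the 39 rose and 2 fell, with a median of 0.18, where the median was -0.47 in CC and -0.19 in Cb. Ctsd, the protease cathepsin D, measured 7550, 9139 and 6911 CPM at P7 and 10414, 10425, 10649 and 11189 CPM at P10 in Cx, against 15114 to 16215 CPM at P7 and 10121 to 12215 CPM at P10 in CC. It thus rose in Cx (log2 0.44 ± 0.07), fell in CC (-0.48) and fell in Cb (-0.44), and the P10 libraries of Cx lay within the P10 range of CC. The changes differed by 0.92 ± 0.10 from CC (adjusted p = 6.6e-06) and by 0.88 ± 0.10 from Cb (adjusted p = 7.1e-05, edgeR's quasi-likelihood test). By limma-voom both differences had an adjusted p of 0.047, and the rise within Cx did not pass (0.27).

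Grn, the lysosomal protein progranulin, also rose in Cx and fell in CC, at 4090, 4717 and 3856 CPM and 5905, 5582, 6005 and 5952 CPM in Cx against 5759 to 6511 CPM and 4498 to 5233 CPM in CC. Ctsl, cathepsin L, did not pass within Cx, with 3499, 3455 and 3245 CPM at P7 and 3542, 3646, 3782 and 3432 CPM at P10, while CC went from 8281 to 9100 CPM to 4545 to 4895 CPM (difference 0.98 ± 0.10, adjusted p = 9.8e-07 by the same test). Hexa, a hexosaminidase subunit, differed from CC by 0.89 ± 0.08 and from Cb by 0.59 ± 0.08. With only the groups compared, Hexa did not pass against Cb (adjusted p = 0.014, edgeR's quasi-likelihood test) and Grn did not pass against CC (0.012). Without Cb P7 replicate 1 Grn did not pass against Cb (0.012 by the same test). Ctsb, cathepsin B, fell in all 3 regions, in Cx from 8802, 11325 and 9273 CPM to 7340, 7416, 7187 and 7322 CPM, and by less than in CC (0.80 ± 0.10). By limma-voom neither that difference (adjusted p = 0.82) nor the fall within Cx (0.76) passed, and the fall did not pass in the fit of the 7 libraries alone (0.012). Psap, the precursor of the saposins, and Man2b1, a lysosomal mannosidase, rose in Cx by 1.78-fold and 1.70-fold (Psap log2 1.05 without P7 replicate 1), and Cd63, a lysosomal tetraspanin, fell 1.44-fold. Cd63 did not pass without any library but P10 replicate 2 or P7 replicate 3 (adjusted p 0.025 to 0.20).

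Outside the lysosome list, Soat1, which esterifies cholesterol, was at 119 to 135 CPM and 141 to 166 CPM in Cx against 288 to 324 CPM and 144 to 181 CPM in CC, a difference of 1.30 ± 0.14. Itgax and Spp1 had the largest differences (4.36 ± 0.67 and 5.28 ± 0.98) and both were high in CC at P7, at 92.3 to 137 CPM and 6686 to 11499 CPM, and low there at P10. By limma-voom the adjusted p was 0.65 for Spp1. Of the genes called within Cx, Lag3 (1.73 ± 0.27), Chn2 (1.27 ± 0.23), a regulator of Rac, and Cd34 (0.95 ± 0.17), a surface sialomucin, also differed from CC. The difference did not pass for Chn2 with only the groups compared (adjusted p = 0.16) or for Cd34 by limma-voom (0.16). Lag3 in CC was at 60.3 to 70.8 CPM at P7, above all Cx libraries of both ages. Chn2 had a log2 value of 0.96 within Cx without P7 replicate 1. None of the genes called within Cx passed against Cb, where the smallest were Adgrg1 (0.62, adjusted p = 0.060), Ranbp1 (-0.70, 0.061), Cd34 (0.77, 0.067) and Fam46c, a poly(A) polymerase (0.95, 0.076).

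**Figure D4:**
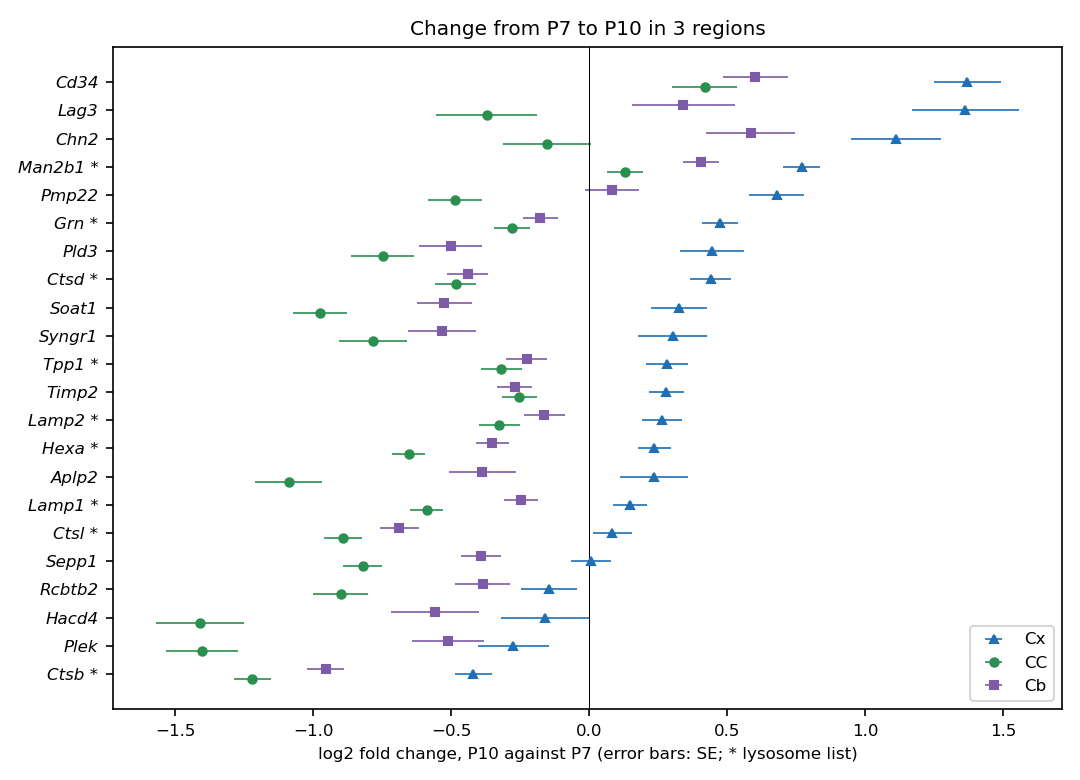
log2 fold change from P7 to P10 (x axis, error bars SE) in Cx (triangles), CC (circles) and Cb (squares) for genes whose change in Cx differed from that in CC, with Itgax and Spp1 left out for scale and * for the lysosome list. The Cx triangle lies to the right of the CC circle in each row. In most rows, among them Ctsd, Grn and Soat1, the 2 lie on opposite sides of 0. Some of these Cx values, such as that of Ctsl (0.08), are near 0.

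2 called features switched with age in every region. Gm28438, a short feature on chromosome 1 (24612775 to 24613119 in GRCm38), had 0 reads in the 3 Cx P7 libraries and 3.26 to 3.97 CPM at P10, at least 43.2-fold higher against a floor of 3 counts per library. The mitochondrial gene mt-Nd3 had 0.813 to 4.32 CPM in the Cx P7 libraries and 0 reads at P10, at least 41.7-fold lower. Over the 9 P7 libraries of the series mt-Nd3 had 34 to 206 reads and Gm28438 at most 3, and over the other 24 libraries mt-Nd3 had 0 and Gm28438 55 to 189. Age and any step of preparation or read assignment that went with it cannot be told apart here. The same holds for the other P10 against P7 differences given above. Gm44545, called higher, lies on the other strand within the span of P2ry6, and the exons of the 2 do not overlap. Whether reads from P2ry6 RNA entered its count was not tested.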

How the data were processed

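The authors sorted microglia, prepared cDNA with a low-input SMARTer kit and Nextera XT, and deposited a table of raw counts per gene. The submitters' processing notes name CASAVA 1.8.2, STAR 2.5.2b, Subread with featureCounts 1.6.2, limma 3.38 and the build GRCm38. Whether strand was used in counting is not given in the sources used here, so overlapping genes on opposite strands are uncertain. From the 48587 genes (92 spike-in sequences apart), 17212 without a read and the 10458 of the rest with the lowest summed counts (at most 26) were removed, leaving 20917. The count test was edgeR's quasi-likelihood test (edgeR 4.0.16, R 4.3.3, TMM, robust) over all 33 libraries in 9 groups of region and age, with Benjamini-Hochberg adjustment. The study's limits, an adjusted p of 0.01 and a log2 fold change of 1, defined a call. CPM are these counts divided by the TMM-scaled library size. Bounds for genes at 0 use a floor of 3 counts per library and cover counting error only.

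Named genes were the 12 largest increases and 12 largest decreases among called genes averaging 10 CPM or more, up to 4 called members and the 2 most abundant members of each list, the study's 2 lists, the cell type markers and up to 4 called genes per regional difference. Others are named where a count or a regional difference turned on them, after their values were seen. The members and lists were chosen with earlier results of these data known. On simulated counts for the P10 against P7 comparison in Cx (20883 genes), the test recovered 51% of 2-fold and 92% of 4-fold changes at an adjusted p of 0.01, with 1 false call. The changes were placed only in genes averaging 10 CPM or more, so these shares do not cover scarcer genes. Each simulated gene had 1 spread for all groups, which the real libraries need not follow. Alternatives were limma-voom (limma 3.58.1), DESeq2 1.42.0, other size factors and filters, sex as a covariate, a replicate block, the compared groups alone and leaving out each library. Some genes counted in the lists and totals are not reported here by name.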

Additional observations from a re-analysis of the deposited data

Results flagged for a closer look

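Among 118 named genes, 8 had 1 of the 4 Cx P10 libraries standing apart from the other three by the range-based test of Dixon. These were Sparc in replicate 1 (11888 CPM), Irf5 in replicate 4 (261 CPM), Plin2 in replicate 3 (79.6 CPM), Pa2g4 in replicate 3 (47.8 CPM), Hexa in replicate 4 (1981 CPM), Pld3 in replicate 1 (339 CPM), Psap in replicate 1 (4559 CPM) and Mertk in replicate 2 (392 CPM). By chance about 5% of groups would stand out so.

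The change from P7 to P10 was more positive in Cx than in CC for 25 genes by the test of the difference (edgeR's quasi-likelihood test). On the log2 scale lysosomal genes among them differed by 0.89 (Hexa), 0.98 (Ctsl), 0.92 (Ctsd), 0.74 (Lamp1), 0.80 (Ctsb), 0.75 (Grn), 0.64 (Man2b1), 0.59 (Lamp2) and 0.60 (Tpp1). Other differences were 1.30 (Soat1), 1.16 (Pmp22), 0.83 (Sepp1), 1.32 (Aplp2), 1.19 (Pld3), 4.36 (Itgax), 1.73 (Lag3), 1.09 (Syngr1), 1.13 (Plek), 0.53 (Timp2), 0.95 (Cd34), 1.27 (Chn2), 1.25 (Hacd4), 5.28 (Spp1) and 0.75 (Rcbtb2). Against Cb the differences were 0.88 (Ctsd), 0.77 (Ctsl), 0.65 (Grn), 0.59 (Hexa), 0.78 (Tmem86a), 0.88 (Slc40a1), 0.55 (Timp2), 0.85 (Soat1) and 0.95 (Pld3).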

How the results depend on the processing

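Of the 94 genes called in Cx none changed sign in any alternative. The count was 170 by limma-voom (116 lower), 162 with only the groups compared (88 lower), 1048 at an adjusted p of 0.05 without a fold limit and 67 to 98 with 1 library left out (40 to 58 higher, 24 to 48 lower), and DESeq2 called 80 higher. Without a fold limit the 600 genes became 905 by limma-voom, 1061 by DESeq2 and 336 to 548 with 1 library left out. The 11 genes that differed from CC became 29 by limma-voom, 101 by DESeq2, 6 with only the groups compared and 6 to 13 with 1 library left out. The 0 that differed from Cb became 4, 30, 1 and 0 to 2. Without a fold limit the 25 and 9 became 57 and 17 by limma-voom, 169 and 65 by DESeq2, and 15 to 29 and 2 to 11 with 1 library left out, and 12 of the first kind with only the groups compared. Without Cx P10 replicate 3 the 25 became 18, the 11 became 8 and the 9 became 7. Risers then numbered 22 in the homeostatic list, 2 among transcription factors, 7 among cytokine and chemokine receptors and 4 among phagocytic receptors. They numbered 4 among complement genes and Fc receptors, 1 in class I and 1 in lipid handling. Genes that fell numbered 3 in glycolysis, 1 in the lysosome list and 1 in the complement list. The cause was not tested. Of 51 named called genes 22 lost their call without some library, 12 of them only through the fold limit. In the alternatives other than leaving out a library, 42 of the 51 kept their call throughout.

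Deviations of same-numbered Cx libraries correlated at -0.02, -0.06 and -0.08 between P7 and P10, where no animal can be shared. Within an age, deviations of same-numbered Cx and CC or Cb libraries correlated at -0.05 to 0.08. Whether a number stands for the same animals across regions is not known. With a replicate block within each age 11 genes differed from CC and 0 from Cb. With a replicate block 94 genes were called, 80 of them shared, and 11 and 0 differed from CC and Cb.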
